A study of Mus musculus with 2 samples.

Results

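The genes described here are 33 hypoxia-inducible genes that lie outside glycolysis and mitophagy, among 34763 genes with a probe on the array. They were taken by gene symbol, as every non-control spot of the array that carries one of the 33 names, and the list was selected on the known response of these genes to hypoxia and with their log2 ratios of FGF23 over unstimulated already seen. Its values are therefore given as a description, and the calls of the test that covers all genes are quoted without being read as support. mIMCD3 cells, an epithelial line of the mouse inner medullary collecting duct, were given FGF23 at 10 ng/mL for 4 h, or were left without it. Both conditions shared DMEM/F12 medium with 10% serum, and no low-oxygen condition is named. FGF23 is a bone-derived hormone known for lowering phosphate reabsorption in the kidney, and the comparison was made to look for other roles in tubule cells. Each of the 2 Agilent two-colour arrays held both RNAs, with the FGF23 RNA in Cy3 on array 1 and in Cy5 on array 2. All values come from 1 established line, and no label states that each array had cultures of its own, so the p-values measure only the spread between arrays, which may be technical. In RNA of a whole culture, more RNA per cell and more cells with that RNA cannot be told apart.

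Cells sense low oxygen through the hypoxia-inducible factors, or HIFs, each made of an oxygen-labile alpha subunit and the stable partner ARNT. While oxygen is present, the prolyl hydroxylases encoded by the Egln genes mark the alpha subunit for the VHL ubiquitin ligase, and it is degraded. When the alpha subunit is stable, the dimer binds short DNA elements with the core ACGTG or GCGTG and turns on genes for glycolysis, mitophagy, pH control, collagen modification, chromatin, vessel growth and signalling. In the kidney the inner medulla is the zone that normally works at low oxygen.

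Of the 33 genes, 27 were measured, meaning that a probe was well above background on both arrays in at least 1 condition. All 27 were above background on both arrays in both conditions. A group of 7 had a log2 ratio of FGF23 over unstimulated of at least 0.25 on both arrays, namely Ankrd37, Ndrg1, Ak4, P4ha2, Fam162a, P4ha1 and Kdm3a. That is 25.9% of the measured members, against 0.484% of the 19221 measured genes, by a limit chosen after the values were seen. With median centring as the dye correction, all 7 kept a mean above 0, but 1 of the 7 was above 0 on both arrays. The mean says little here, since a dye difference left in place largely cancels over swapped arrays. Just inside this limit lay Kdm3a, at 0.32 and 0.26, and just outside it Higd1a, at 0.19 and 0.18. P4ha1 met the limit by its brightest probe, while a second measured probe, at 0.20 and 0.077, did not. None of the members was 0.25 or more below 0 on both arrays, as 0.156% of all genes were. Ankrd37, an ankyrin repeat protein, passed limma's test over all genes and rose 1.55-fold (log2 ratio 0.63 ± 0.17, SD, n = 2 arrays, adjusted p = 0.0301). It was the 1 member that passed, or 3.7%, where 0.0468% of all genes passed as higher and 0% as lower. The other 26 did not pass, and no verdict on them follows from that.

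Promoters are shown because a HIF element near the start is a known feature of this gene class. RefSeq promoter windows (GRCm38.p6), which run from 250 bases before the start of a gene to 50 bases after it, were matched by symbol for 25 of the 33 genes, some with more than 1 start. Below are the 250 bases before the start for those of the 5 members with the highest ratios that have a window, with every ACGTG or GCGTG on either strand in capitals. CACGT and CACGC are these letters read on the opposite strand.
Ankrd37, chr8:45999851-46000100, minus strand: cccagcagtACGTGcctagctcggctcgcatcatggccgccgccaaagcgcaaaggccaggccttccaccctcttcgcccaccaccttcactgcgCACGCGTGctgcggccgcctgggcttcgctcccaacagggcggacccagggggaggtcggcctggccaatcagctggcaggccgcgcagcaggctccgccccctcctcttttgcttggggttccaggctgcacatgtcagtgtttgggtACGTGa
Ak4, chr4:101419039-101419288, plus strand: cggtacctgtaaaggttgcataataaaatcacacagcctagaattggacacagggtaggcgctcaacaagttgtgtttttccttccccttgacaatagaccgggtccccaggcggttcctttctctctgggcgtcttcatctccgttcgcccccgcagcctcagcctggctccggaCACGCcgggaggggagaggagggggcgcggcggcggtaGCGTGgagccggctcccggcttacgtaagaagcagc
P4ha2, chr11:54100674-54100923, plus strand: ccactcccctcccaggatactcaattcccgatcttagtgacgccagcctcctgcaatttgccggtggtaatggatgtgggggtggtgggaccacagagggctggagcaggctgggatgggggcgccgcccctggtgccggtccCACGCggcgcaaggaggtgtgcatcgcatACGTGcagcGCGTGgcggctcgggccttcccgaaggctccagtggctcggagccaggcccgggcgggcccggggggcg
Fam162a, chr16:36071562-36071811, minus strand: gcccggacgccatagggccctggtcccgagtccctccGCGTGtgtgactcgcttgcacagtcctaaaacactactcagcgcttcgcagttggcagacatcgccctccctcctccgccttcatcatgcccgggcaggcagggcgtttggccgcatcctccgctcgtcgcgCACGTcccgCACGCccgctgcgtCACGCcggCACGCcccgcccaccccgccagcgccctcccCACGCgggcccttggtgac
Ndrg1 was not in the promoter table. Ankrd37 held 4 matches, of which 1 lies just before the start and a pair overlaps on opposite strands. Fam162a held 6, P4ha2 held 3 in these bases and 1 more after the start, and the Ak4 window shown held 2. Over all members, 29 of 36 windows (80.6%) held at least 1 match, against 43.8% of the 32851 windows of the same length. Windows of a gene can overlap, as some of Ak4 do, so the same match can count more than 1 time. Both cores contain a CpG, and the members' windows were rich in it, with a median of 25 CpGs against 7 in all windows. Among all windows with at least 25 CpGs, 75.1% held a match, near the share in the members. That set is not matched to the members, since its median was 32 CpGs. At least 2 matches were in 58.3% of the members' windows, in 46.4% of the CpG-rich ones and in 20.6% of all. The sequence CACGTG, in which ACGTG occurs on both strands and which other factors also bind, was in 11.1% of the members' windows, in 7.15% of all and in 11.9% of the CpG-rich ones. A match is a run of letters, not a measured binding site, and a CACGTG counts as 2 matches, 1 on each strand. Members without a raised ratio held matches too, such as the Wsb1 window with 6, CACGTG among them.

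The arrays were alike in quality. Each had 59305 spots that were not controls, of which 48.2% to 55.2% were well above background in a dye, none was saturated, and 189 and 201 were left out as outliers. The SD of the log2 ratios over all genes was 0.15 on array 1 and 0.13 on array 2. The spike-in controls gave a slope of observed on expected log ratio of 0.851 and 0.852, so ratios were compressed. Of 18 collecting duct and epithelial markers 16 were measured, Aqp2, Cdh1 and Epcam among them, while Aqp3 and Avpr2 were not above background. Of markers of other cells, 4 of 6 for proximal tubule and 1 of 6 for fibroblasts were measured. So were 2 of 5 for endothelium and 3 of 5 for macrophages, while Pdgfra, Cdh5 and Ptprc were not. The macrophage markers Itgam and Csf1r and the endothelial marker Kdr had mean log2 intensities of 11.34 or more. Those of Cdh1, Epcam and Aqp2 were lower, at 11.16, 10.22 and 7.52. The collecting duct markers Krt18, Krt8, Cldn7, Krt19, Hoxb7 and Krt7 were brighter than Itgam, Csf1r and Kdr. The other measured markers of other cells were dimmer than Epcam. None of these markers passed limma's test. At an unadjusted p under 0.05 in limma, 2 of 16 collecting duct markers were higher and 0 lower. The shares of all genes were 2.6% and 1.31%. The part of these markers in the results was not tested. The collecting duct markers had a median log2 ratio of 0.061, and 9 of 16 were above 0 on both arrays, where 23.9% of all genes were.

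**Figure D1:**
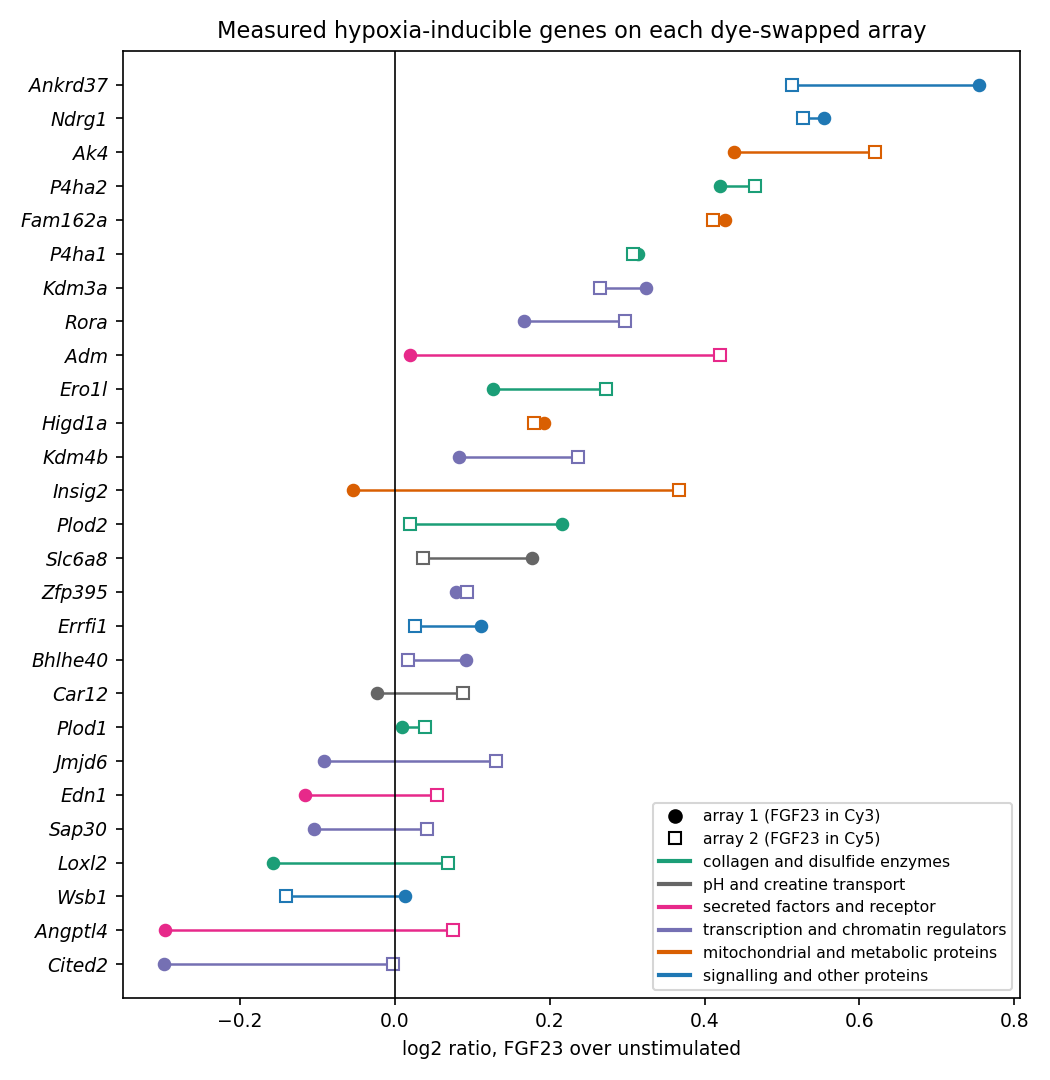
Log2 ratio of FGF23 over unstimulated for each of the 27 measured members, from the highest mean at the top to the lowest. Filled circles are array 1, open squares array 2, the line joins them, and colour marks the role. Ankrd37, at 0.76 and 0.51, stands at the top, and 7 members lie at 0.25 or above on both arrays.

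Signalling and other intracellular proteins held the highest pair. Ankrd37 had normalized log2 intensities of 10.26 and 10.22 with FGF23 on arrays 1 and 2, against 9.51 and 9.70 in unstimulated cells. The conditions did not overlap, and the ratio was larger on array 1 (0.76) than on array 2 (0.51). Measured genes were divided into 10 classes by brightness, and among the 1922 genes of its class its ratio ranked 1 on array 1 and 9 on array 2, counted from the highest. Its probe lies on chromosome 8 from 47082404 to 47082463 (mm9). The call was lost with other processing of the same signals. The adjusted p in limma was 0.485 with the scanner software's log ratio, 0.212 with a normexp offset of 0 and 0.999997 with median centring. The mean log2 ratio stayed between 0.62 and 0.68. Its lower end came from median centring, where a dye difference left in place largely cancels in the mean.

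Ndrg1, a cytosolic protein of differentiation and stress that hypoxia is known to induce, had 11.76 and 11.75 with FGF23, against 11.21 and 11.22 in unstimulated cells. The FGF23 values were higher on both arrays and the ratios nearly equal (0.55 and 0.53, mean 0.54 ± 0.020, 1.45-fold). Its adjusted p in limma was 0.0552, and it ranked 2 and 13 among the 1922 genes of like brightness. The probe lies on chromosome 15 from 66761057 to 66761116 (mm9). Errfi1, a feedback inhibitor of the EGF receptor, had ratios of 0.11 and 0.026. Wsb1, a substrate adaptor of a ubiquitin ligase, had 8.96 and 9.03 with FGF23, against 8.95 and 9.17 in unstimulated cells, with ratios of 0.013 and -0.14. Its conditions overlapped. Tmem45a, a membrane protein, was not well above background in either condition.

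Mitochondrial and metabolic proteins had a median of 0.30. On both arrays 3 of 4 measured members were above 0, where 23.9% of all genes were. Ak4, an adenylate kinase of the mitochondrial matrix, had 9.53 and 9.66 with FGF23, against 9.09 and 9.04 in unstimulated cells. The conditions lay apart, and the ratios were 0.44 and 0.62 (mean 0.53 ± 0.13, 1.44-fold, adjusted p = 0.0679). It ranked 13 and 2 among genes of like brightness, and its probe lies on chromosome 4 from 101139464 to 101139523 (mm9). A second Ak4 probe, on chromosome 4 from 101136213 to 101136272 (mm9), was not above background in any channel and is not used.

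Fam162a, a mitochondrial protein linked to cell death in hypoxia, had 13.48 and 13.49 with FGF23, against 13.05 and 13.08 in unstimulated cells. It is printed 10 times on each array, which gives the error within an array. The 8 usable spots of array 1 had a mean log2 ratio of 0.43 with an SD of 0.020, and the 9 of array 2 had 0.41 with an SD of 0.011. Every one of these spots was above 0, the lowest at 0.39, and the adjusted p of the gene was 0.207. Higd1a, a mitochondrial protein that modulates the respiratory chain in hypoxia, had ratios of 0.19 and 0.18, and in the brightest class it ranked 104 and 195 of 1923. Insig2, an endoplasmic reticulum protein that retains the sterol sensor SCAP, had -0.054 and 0.37, a difference between arrays larger than its mean of 0.16. Ppp1r3c, a glycogen-targeting subunit of protein phosphatase 1, was not well above background.

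**Figure D2:**
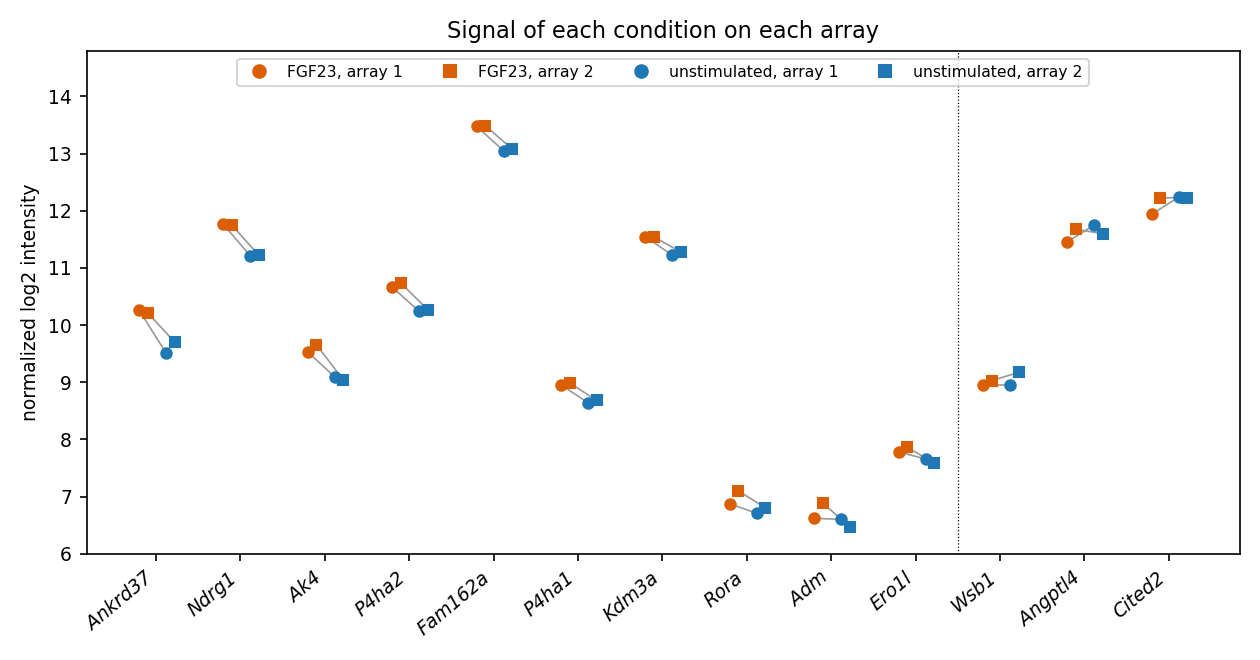
Normalized log2 intensity of the 10 members with the highest mean ratio and, right of the dotted line, the 3 with the lowest. Orange is FGF23 and blue unstimulated, circles are array 1 and squares array 2, and a line joins the conditions of an array. In all 10 of the highest both orange points lie above both blue points, as in 17.4% of all genes. The Ndrg1 values of 11.76 and 11.75 lie above 11.21 and 11.22, whereas the lower Adm value with FGF23, 6.62, barely exceeds 6.60.

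The enzymes that modify collagen and form disulfide bonds had a median of 0.16. On both arrays 5 of 6 were above 0, where 23.9% of all genes were. The catalytic subunits of collagen prolyl 4-hydroxylase led them. P4ha2 had 10.66 and 10.74 with FGF23, against 10.24 and 10.27 in unstimulated cells. P4ha1 had 8.95 and 8.99 with FGF23, against 8.64 and 8.68 in unstimulated cells. The conditions did not overlap in either gene. The ratios were 0.42 and 0.47 for P4ha2 (mean 0.44 ± 0.032, adjusted p = 0.144) and 0.31 on both arrays for P4ha1 (0.31 ± 0.0053, adjusted p = 0.580). P4ha2 ranked 9 and 7 among genes of like brightness, and P4ha1 ranked 26 and 33. Their probes lie on chromosome 11 from 53945032 to 53945091 and on chromosome 10 from 58835625 to 58835684 (mm9).

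Ero1l, now named Ero1a, the oxidase that recharges protein disulfide isomerase, had 7.78 and 7.86 with FGF23, against 7.66 and 7.59 in unstimulated cells. Both FGF23 values were higher, at ratios of 0.13 and 0.27. The lysyl hydroxylases, which act on collagen as the prolyl enzymes do, had smaller ratios. Plod2 had 0.22 and 0.019, and Plod1 had 0.0097 and 0.039. Loxl2, a secreted lysyl oxidase that crosslinks collagen, had ratios of -0.16 and 0.069. Its conditions overlapped.

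Of the regulators of transcription and chromatin, 5 of 8 measured were above 0 on both arrays and 1 was below on both. Their median was 0.070. Of all genes, 23.9% were above and 22.3% below 0 on both arrays. Kdm3a, a histone H3 lysine demethylase that itself needs oxygen, had 11.54 and 11.54 with FGF23, against 11.22 and 11.28 in unstimulated cells. The conditions lay apart, with ratios of 0.32 and 0.26 (mean 0.29 ± 0.042, 1.23-fold, adjusted p = 0.683). It ranked 21 and 60 among genes of like brightness, and its probe lies on chromosome 6 from 71539112 to 71539171 (mm9). Kdm4b, another histone demethylase, had smaller ratios of 0.083 and 0.24. Jmjd6, a hydroxylase and demethylase of the same fold, had -0.091 and 0.13.

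Rora, a nuclear receptor, had 6.87 and 7.10 with FGF23, against 6.70 and 6.80 in unstimulated cells. Its probe is dim, and its mean log2 ratio of 0.23 was 0.50 with the scanner software's log ratio and 0.42 with a normexp offset of 0. Zfp395, a zinc finger protein, had 0.079 and 0.093, and Bhlhe40, a basic helix-loop-helix repressor, had 0.093 and 0.017. Sap30, a subunit of the Sin3 deacetylase complex, had -0.10 and 0.041. Cited2, which competes with the HIF alpha subunit for the coactivators CBP and p300, was the lowest member. It had 11.94 and 12.23 with FGF23, against 12.24 and 12.23 in unstimulated cells, so array 1 alone set it apart (-0.30, against -0.0022 on array 2). Mxi1, a MAX partner that opposes MYC, was not well above background.

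The group of secreted factors and a receptor had a median of -0.031. Of the 5 listed, Igfbp3, a binding protein of insulin-like growth factors, and the chemokine receptor Cxcr4 were not well above background. Adm, the precursor of the vasodilator adrenomedullin, had 6.62 and 6.89 with FGF23, against 6.60 and 6.47 in unstimulated cells. Its ratio was near 0 on array 1 (0.019) and high on array 2 (0.42), where it ranked 4 among 1922 genes of like brightness. This probe is dim too, and the mean of 0.22 was 0.53 with the scanner software's log ratio and 0.47 with a normexp offset of 0.

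Angptl4, an inhibitor of lipoprotein lipase, had 11.46 and 11.67 with FGF23, against 11.76 and 11.60 in unstimulated cells. Its conditions overlapped and its ratios had opposite signs (-0.30 and 0.075). Edn1, the precursor of the vasoconstrictor endothelin-1, is printed 10 times on each array. Its 10 usable spots on array 1 had a mean of -0.12 with an SD of 0.089, and 1 of them was above 0. Its 7 usable spots on array 2 had a mean of 0.054 with an SD of 0.045, and all were above 0. The array means thus had opposite signs, unlike those of Fam162a, and differed by more than the SD between spots of either array. The ranges of the spots still overlapped, with 0.019 the highest on array 1 and 0.0044 the lowest on array 2.

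Of the genes for pH and creatine transport, Car12, a membrane carbonic anhydrase, had ratios of -0.023 and 0.088, and Slc6a8, the creatine transporter, had 0.18 and 0.037. Car9, the tumour-associated carbonic anhydrase often used as a hypoxia marker, exceeded background on array 1 or array 2 but not both in each condition and was not measured.

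Several members had more than 1 measured probe, and in 2 of these 6 the probes gave means of opposite sign. The second probe of Cited2 had 0.10 and 0.061, where the brightest had -0.30 and -0.0022. A dim second probe of Plod1 had -0.081 and -0.11. Second probes of P4ha1 (0.20 and 0.077), Higd1a (0.21 and 0.014), Insig2 (0.20 and 0.12) and Zfp395 (0.24 and 0.17) were above 0 on both arrays, that of Insig2 without the split between arrays seen in its brightest probe.

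The median of the 27 measured members was a log2 ratio of 0.12, against -0.00064 over all genes. By array the members' medians were 0.093 and 0.13. On both arrays 18 members (66.7%) were above 0, where 23.9% of all genes were, and 1 (3.7%) was below 0, where 22.3% of all genes were. These counts depend on the dye correction, since with median centring the members' medians were -0.45 and 0.70 and 2 were above 0 on both arrays, where 3.03% of all genes were. The median of the means was then 0.10, but a dye difference left in place largely cancels in a mean of swapped arrays. Both FGF23 intensities lay above both unstimulated ones in 17 members (63.0%), against 17.4% of all genes. Within their brightness classes, 11 members on array 1 and 12 on array 2 were in the top 10% of ratios. The classes' own medians ran from -0.032 to 0.010 on array 1 and from -0.011 to 0.034 on array 2. At an unadjusted p under 0.05 in limma, 10 members were higher and 0 lower (37.0% and 0%), against 2.6% and 1.31% of all genes. With median centring 0 members were higher at that p, and with the scanner software's log ratio 8 were.

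**Figure D3:**
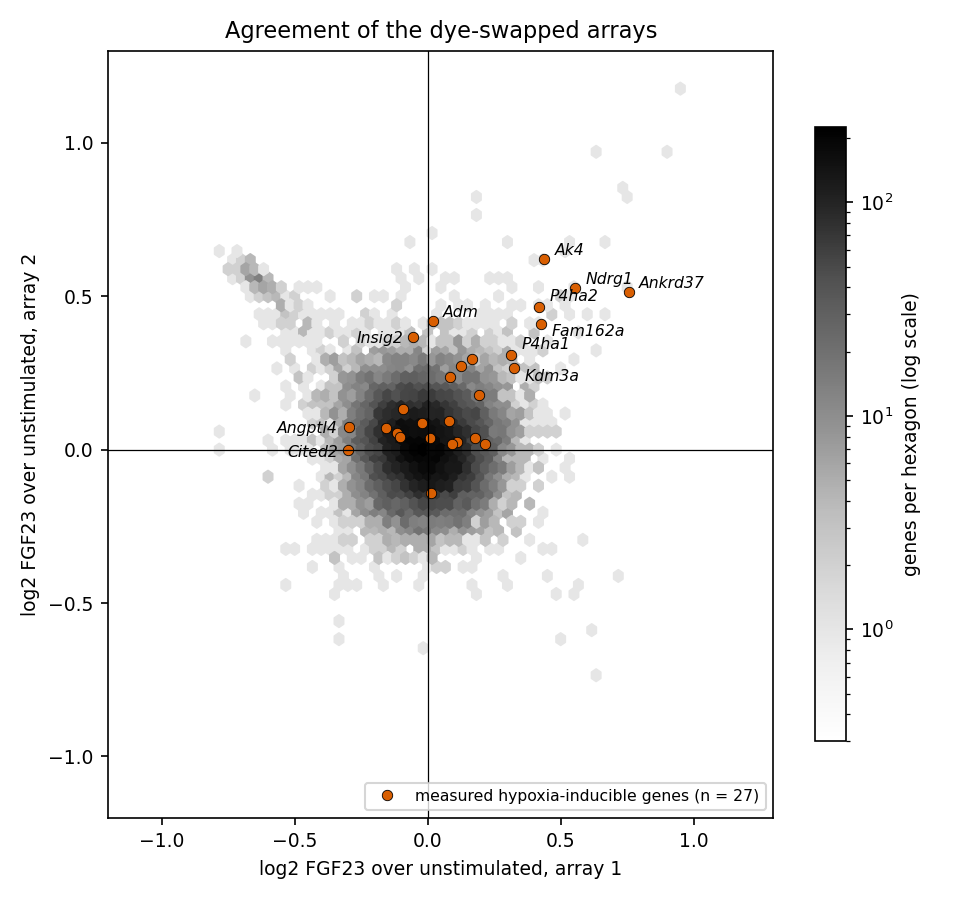
Log2 ratio of FGF23 over unstimulated on array 1 (x axis) and array 2 (y axis). Grey hexagons count all 19221 measured genes, darker for more genes on a log scale, and orange points are the 27 measured members. Ankrd37, Ndrg1, Ak4, P4ha2 and Fam162a lie in the upper right, outside the grey mass, whereas a streak of other genes at the upper left has opposite signs on the arrays.

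Across the members Pearson's r between array 1 and array 2 was 0.71 and Spearman's rho 0.58 (n = 27 genes, which share both arrays and both RNAs). Across all 19221 genes these were -0.12 and -0.084. Since the dyes were swapped, a gene has ratios of opposite sign where its difference between dyes is larger than that between conditions. The dye ratio of each gene, the mean log2 Cy5 over Cy3 with neither array turned, is the part of the signal in which an effect of FGF23 cancels. It ran from -0.12 to 0.21 in the members, with a median of 0.023, against 0.011 over all genes. In Ndrg1, Fam162a, P4ha1 and Kdm3a the dye ratio was -0.014, -0.0081, -0.0037 and -0.030. It was largest in Insig2 (0.21), Adm (0.20) and Angptl4 (0.19), and by its construction it is large where the arrays differ.

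**Figure D4:**
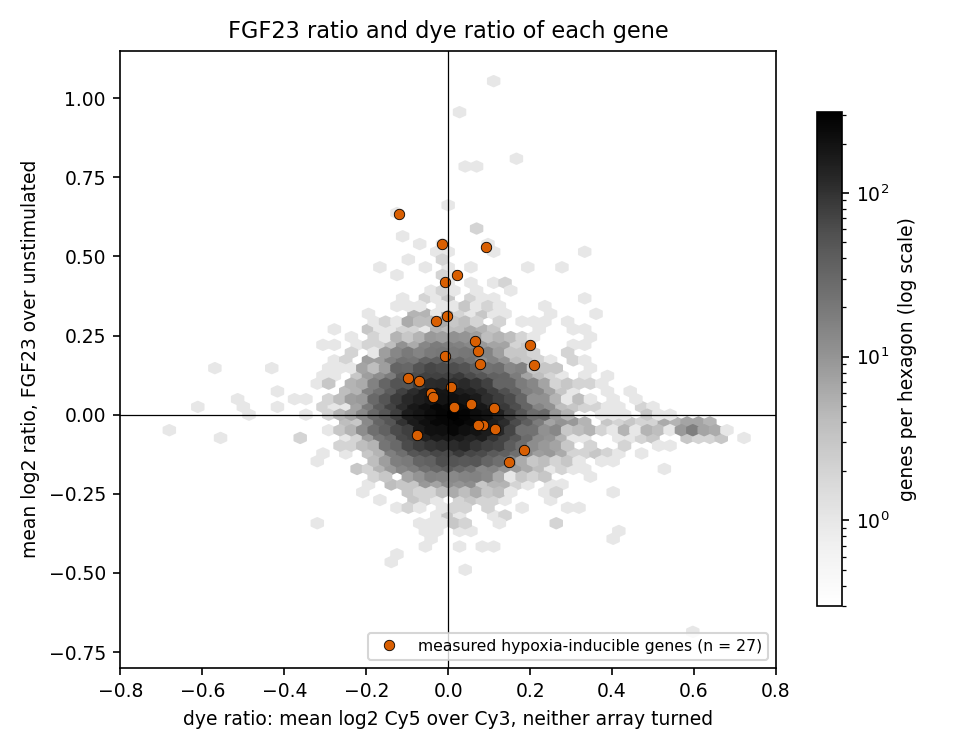
Mean log2 ratio of FGF23 over unstimulated (y axis) against the dye ratio, the mean log2 Cy5 over Cy3 with neither array turned (x axis). Grey hexagons count all measured genes on a log scale and orange points are the 27 members. Among the 5 members with the highest FGF23 ratios, the dye ratio runs from -0.12 in Ankrd37, the lowest of all members, to 0.092 in Ak4.

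The other genes of the pathway were set beside these. Of 16 genes for HIF subunits and oxygen sensing, 15 were measured, 0 passed limma's test in either direction (0 also at an unadjusted p under 0.05), 3 were above 0 and 2 below 0 on both arrays, and the median was 0.012. The oxygen sensors Egln1 and Egln2 had the highest means (0.100 ± 0.049 and 0.096 ± 0.087), and Hif3a was not above background. Hif1a had 10.00 and 9.89 with FGF23, against 9.82 and 10.02 in unstimulated cells, and Epas1, which encodes HIF-2 alpha, had 10.90 and 11.09, against 11.08 and 10.89. Both overlapped between conditions. Of 21 glycolytic HIF targets 20 were measured, with a median of 0.21, 14 above 0 and 0 below 0 on both arrays, and 2 passed as higher, the lactate exporter Slc16a3 (0.60 ± 0.087, adjusted p = 0.0301) and the pyruvate dehydrogenase kinase Pdk1 (0.59 ± 0.083, adjusted p = 0.0327). Of the 3 mitophagy genes, all above 0 on both arrays, Bnip3 passed (1.05 ± 0.16, adjusted p = 0.000657). Of all genes, 23.9% were above 0 on both arrays. At an unadjusted p under 0.05 in limma, 10 glycolytic and 2 mitophagy genes were higher and 0 lower. The shares of all genes were 2.6% and 1.31%. With the scanner software's log ratio and with median centring no gene of the array passed, so the calls of Bnip3, Slc16a3 and Pdk1 were lost there. These lists too were written with earlier results known.

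**Figure D5:**
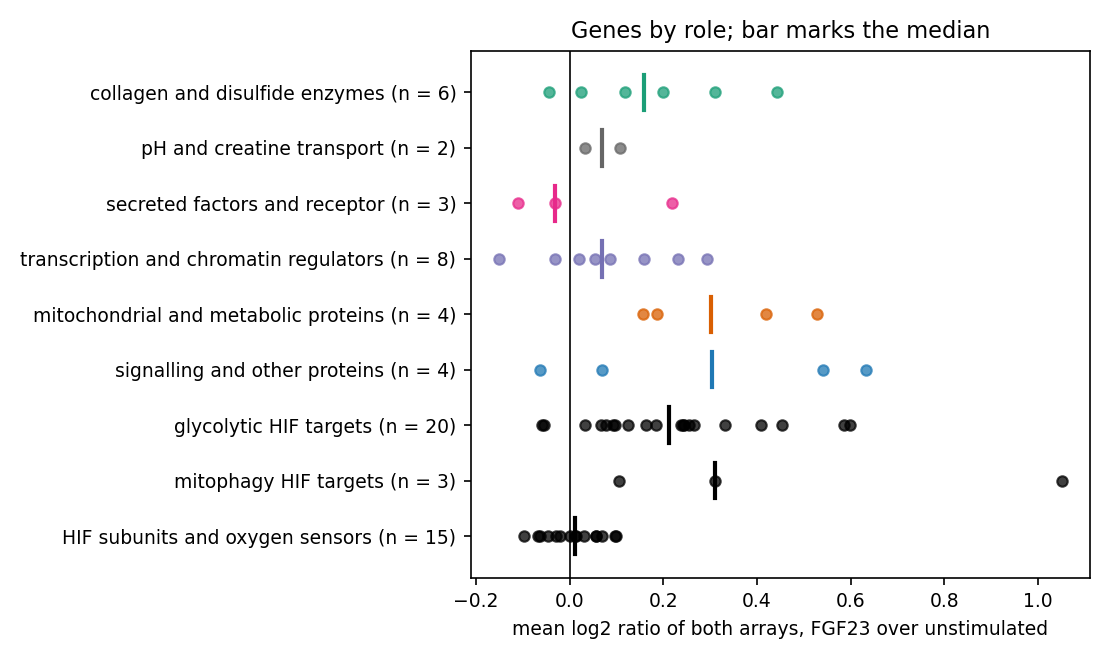
Mean log2 ratio of both arrays for each measured gene, by role of the 27 members (coloured) and for the other hypoxia genes (black). Bars mark medians. Ankrd37 at 0.63 is the highest member, and the HIF subunits and sensors, with a median of 0.012, lie around 0.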

How the data were processed

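Total RNA of FGF23-stimulated and unstimulated cells was hybridised to 2 dye-swapped arrays. Per the file headers, Feature Extraction 11.5.1.1 gave the deposited mean and background intensity per spot and dye in linear scanner units, and a deposited log10 ratio of Cy5 over Cy3, background-subtracted and dye-normalized. Flags for background, saturation and outliers were also deposited, and probe positions are on mm9.

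In limma 3.58.1 (R 4.3.3), normexp with an offset of 50 took the local background median from the mean intensities, and loess with a span of 0.3 normalized each array, controls having weight 0. Log2 ratios were turned to FGF23 over unstimulated. Spots flagged as outliers were dropped, and the rest were averaged per probe. A probe was well above background where at least 0.5 of its spots were. A gene was its brightest kept probe (26943 of 55681 kept), and symbols other than the members' were updated through RefSeq (28026 probes matched, 1651 renamed). Intensities per condition were also normalized between arrays (Aquantile).

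Genes were tested with lmFit and eBayes over 19221 genes with Benjamini-Hochberg adjustment at 0.05. It had 1 residual degree of freedom, and 12 from the spread of all genes. The SD printed beside a mean is over the 2 arrays. Precision is limited by there being 2 arrays. The script was tested on simulated data. The files give both arrays 1 scan time. All 33 members are named, and full intensities were given for the 10 highest and 3 lowest means. The members and lists were chosen with earlier results of these data known. Alternatives covered the log ratio, offset, centring, probe averaging, filters, prior, symbols and single arrays. Scanner p-values and probe positions in exons or UTRs were not analysed here.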

Additional observations from a re-analysis of the deposited data

How the results depend on the processing

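The fit reported is itself paired, since each ratio sets both conditions of 1 array against each other, and a further replicate block could not be fitted. The median of the measured members, 0.12, was 0.15 over the mean of a gene's kept probes and 0.069 without a filter on dim probes, which adds the 6 unmeasured members, and it ran from 0.093 to 0.13 on single arrays. Under the alternatives that used both arrays, other than median centring, 16 to 18 members were above 0 on both. These were of 33 members without a filter on dim probes and of 27 otherwise. With median centring they were 2, where 3.03% of all genes were, against 23.9% in the fit reported. Median centring leaves the dependence of the dyes on brightness in place by its construction. Members past the test numbered 0 with the scanner software's log ratio, a normexp offset of 0 and median centring. They numbered 2 (Ankrd37 and Ndrg1) under either other filter or the array's own symbols, 3 over averaged probes (also Ak4) and 5 with a robust prior that follows intensity (also Fam162a and P4ha2). Genes past the test, 9 in the fit reported, numbered 0, 5 and 0 with the first 3 of these settings, 17 over averaged probes (16 higher and 1 lower) and 79 with the robust prior (59 higher and 20 lower). Plod1 changed sign over averaged probes (-0.036). Its own probes are of opposite sign, and it had not passed. Of 216 values of single members under processing alternatives, 203 kept their direction and side of the threshold, 9 gained the call and 3 lost it. The 203 was in part fixed in advance. The filters, the prior and the array's symbols left the log2 ratios of the measured members unchanged, so no direction could change there. With median centring the direction counted is that of the mean, in which a dye difference left in place largely cancels. A member that had not passed also kept its side by not passing again. The cause of the other differences was not tested. Dim probes limit Adm, Rora and the 6 unmeasured members.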
